A study of Mus musculus with 4 samples.

Results

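Chemokines, interleukins and their receptors were examined in cultured mouse skin melanocytes from wild-type mice and from mice that lack the aryl hydrocarbon receptor (AhR), a ligand-activated transcription factor. Members were genes whose single array annotation symbol begins with Ccl, Cxcl, Ccr or Cxcr and a digit, or is an interleukin name with an optional receptor or chain suffix. The rule found 95 of the 12393 genes measured. They comprised 18 CC chemokines, 12 CXC chemokines, 15 chemokine receptors, 26 interleukins and 24 interleukin receptor chains. A member counted as expressed when the mean signal of its brightest probe set over the 4 arrays was above 76, and 19 of the 95 did so.

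The cells came from the tail epidermis of 2 wild-type C57BL/6 mice and 2 AhR-deficient mice of the strain AhRtm1Bra, in which exon 2 of the receptor gene is deleted. The allele is a germline one, so every cell type in a knockout culture carried it. All 4 mice were female, and no age is given in the sources used here. Cultures were kept for 6 to 8 weeks in serum-free medium made for melanocytes. The labels name no agent added to either genotype, and all cells held visible melanin by the end. Each array holds amplified, biotin-labelled RNA of an individual mouse, so n is 2 in both groups. Values are linear signal intensities without a unit, and differences are AhR knockout minus wild type of log2(signal + 16), with the SE from limma.

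Chemokines are small secreted proteins that bind G protein-coupled receptors and draw cells along their gradients. The CC and CXC families are named for the spacing of conserved cysteines, CC members acting mainly on monocytes and T cells, and many CXC members on neutrophils. Many interleukins, though not all, signal through paired receptor chains coupled to JAK kinases and STAT factors, or, in the interleukin 1 family, through MyD88 and NF-kappaB. In skin, keratinocytes, fibroblasts, vessel cells and melanocytes all produce members of these families, and resident leukocytes respond to them.

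The arrays themselves differed in ways that touch every gene below. The Gapdh control gave a 3'/5' signal ratio (higher with shortened RNA) between 1.98 and 2.85 on 3 arrays and of 11.9 on AhR knockout 2. Cyp1b1, an enzyme induced through AhR, read 1216 and 1410 in wild type against 14.0 and 23.1 in knockout. Ahr itself read 825 and 874 in wild type against 241 and 843 in knockout. The position of its probe set relative to the deleted exon is not known here, and only one inside that exon would check the label. Of the 14 melanocyte markers measured, 11 were bright enough to test, and Dct, a melanin synthesis enzyme, was between 16814 and 32201 on the 4 arrays. Endothelial markers were present as well, for example Cdh5, the cadherin of vessel junctions, at 3114 and 2970 in wild type against 1634 and 367 in knockout. Markers of both cell types were thus measured in these cultures.

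Of the 19 expressed members, 11 were lower (49.7% of all tested genes were) and 8 higher in knockout cells, and 0 passed the limma test at an adjusted p under 0.05. Over all 7436 tested genes 0.955% passed (0.753% lower and 0.202% higher). There were 8 members with an unadjusted p under 0.05, namely Cxcr4, Il7, Il16, Ccl2 and Ccl6 (5 lower) and Il10rb, Ccl4 and Il3ra (3 higher), or 42.1%, against 20.6% of all tested genes. Of all tested genes 12.9% were lower and 7.68% higher at that level. With each array left out in turn, the share of members at that level fell below that of all tested genes only without wild type 2. It stayed above that share without any other array, including AhR knockout 2, whose Gapdh ratio was highest. The groups did not overlap for 12 members, 8 lower and 4 higher, or 63.2%, against 55.4% of all tested genes (26.7% lower and 28.7% higher). At least 2-fold differences with separated groups were found for 5 lower members and 2 higher ones, where 10.3% and 4.38% of all tested genes met this. Il7 and Ccl6 passed the signal filter only through wild type. Without both, 3 lower and 3 higher of 17 members (35.3%) had an unadjusted p under 0.05, and 3 lower ones differed at least 2-fold with separated groups. The groups did not overlap for 6 lower and 4 higher of these 17, or 58.8%, near the 55.4% of all tested genes. The median difference over the 19 was -0.45, beside 0.0055 over all tested genes, and it was -0.036 without wild type 2. The count past the adjusted threshold also turned on single arrays, for members and for all tested genes. A fit without 1 array leaves its genotype with a lone array, so the genes called in those fits are not listed. The Ccl6 and Il7 differences were -0.26 and -1.16 without wild type 2. That of Cxcr4 was -1.64 without AhR knockout 2 and -4.19 without AhR knockout 1.

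**Figure D1:**
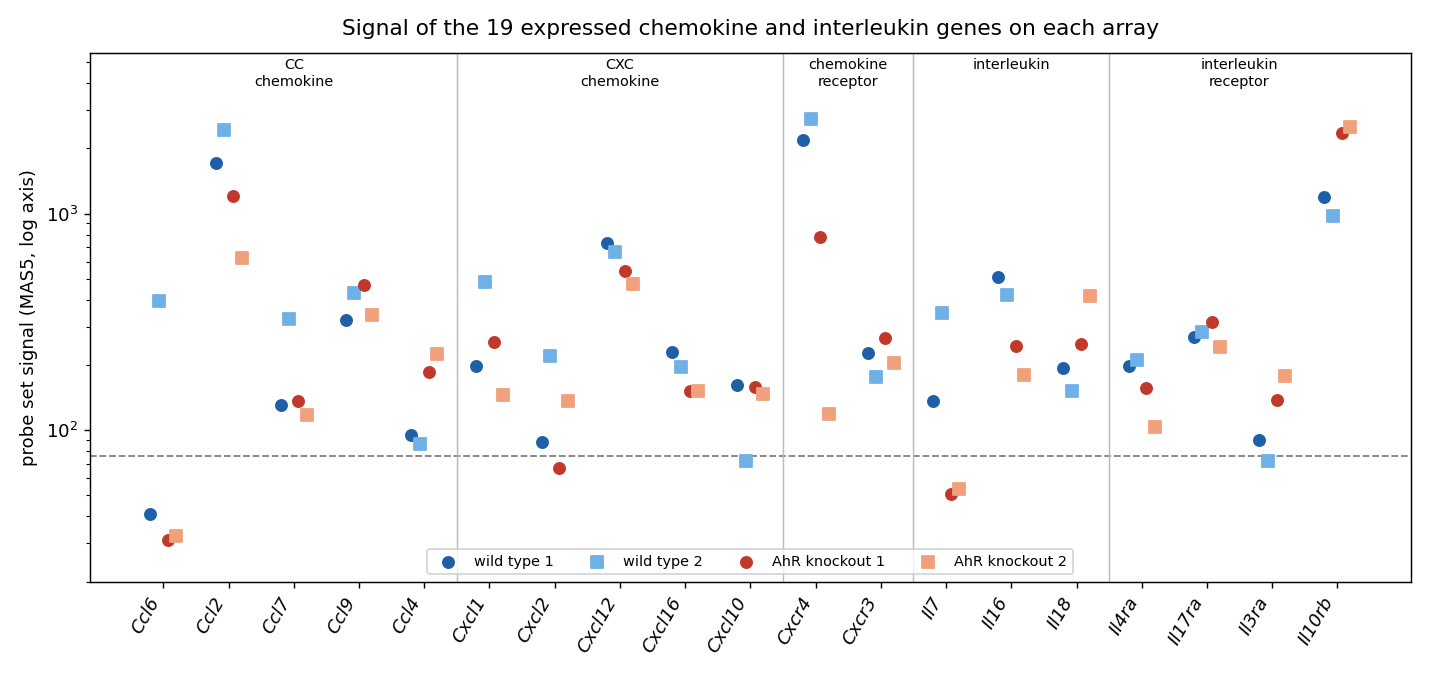
Signal of the brightest probe set of each of the 19 expressed genes (log axis) on the 4 arrays, grouped by role and ordered by difference within a role; blue marks wild type, red and orange AhR knockout, circles mouse 1 and squares mouse 2, and the dashed line is the signal of 76. Cxcr4, Il7, Il16 and Ccl2 lie lower in both knockout arrays, Il10rb and Ccl4 lie higher, and Ccl6 is high in wild type 2 alone.

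Cxcr4, the receptor that guides melanoblasts, leukocytes and vessel cells toward Cxcl12, differed most. It read 2181 and 2745 in wild type against 775 and 119 in knockout. Both knockout arrays lay below both wild-type arrays, and they also lay far from each other. The log2 difference was -2.91 ± 0.68 (SE), with adjusted p = 0.069, the smallest of the members. AhR knockout 1 alone gave -1.64 and AhR knockout 2 alone -4.19. Most tested endothelial markers were lower on the same arrays. Of the 17 tested, 14 were lower with a median of -1.03, and 1 of them (Sox17) passed the adjusted threshold. Eng, Flt4 and Pdpn were higher, by 0.23, 0.17 and 0.15, with separate groups for Eng alone. Vwf, Erg and Prox1 were dim and did not exceed 25.8 on any array. The summed signal of all 20 measured was 40508 and 48764 in wild type against 33313 and 23642 in knockout. In RNA from whole cultures, fewer cells of a type and less RNA per cell cannot be told apart. The part of endothelial cells in the Cxcr4 difference was not tested, nor was that of the Gapdh ratio, which was highest where Cxcr4 read 119.

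Cxcl12, the ligand of Cxcr4 and a product of stromal and endothelial cells, was lower by less. Its brighter probe set read 728 and 664 in wild type against 541 and 473 in knockout. The difference was -0.45 ± 0.36 with adjusted p = 0.49. The dimmer one read 515 and 507 in wild type against 207 and 102 in knockout, with -1.70 ± 0.41 and adjusted p = 0.11 when every probe set was tested by itself. The groups were separated by both probe sets, and the size of the difference depended on which was read. Ackr3, a scavenging receptor that also binds Cxcl12 and lies outside the symbol rule, read 1927 and 1397 in wild type against 1351 and 329 in knockout. Its difference was -1.27 ± 0.58 with adjusted p = 0.25.

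The promoters of this receptor and ligand are shown because their genes had the largest difference and its direct partner. They run from 250 bases before to 50 bases after the annotated start, taken 5' to 3' from the RefSeq table of GRCm38.p6. Cxcr4 lies at chr1:128592250-128592549 on the minus strand and Cxcl12 at chr6:117168285-117168584 on the plus strand. Capitals mark matches on either strand to GCGTG (the core of the AhR response element), TGANTCA (AP-1) or GGGANNNNCC (a pattern for NF-kappaB).
Cxcr4: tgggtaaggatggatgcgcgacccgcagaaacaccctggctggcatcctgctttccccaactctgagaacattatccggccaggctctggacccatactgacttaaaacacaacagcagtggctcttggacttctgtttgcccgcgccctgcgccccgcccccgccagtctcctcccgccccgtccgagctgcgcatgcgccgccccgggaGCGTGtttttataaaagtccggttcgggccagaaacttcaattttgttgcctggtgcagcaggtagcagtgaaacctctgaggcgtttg
Cxcl12: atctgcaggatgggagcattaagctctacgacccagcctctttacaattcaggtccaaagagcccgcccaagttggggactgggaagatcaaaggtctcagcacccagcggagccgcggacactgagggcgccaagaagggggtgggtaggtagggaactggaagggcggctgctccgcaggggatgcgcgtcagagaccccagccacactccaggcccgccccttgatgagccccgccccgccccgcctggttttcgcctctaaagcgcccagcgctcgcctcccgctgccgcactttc
The Cxcr4 promoter held a single match, the AhR core from 39 to 35 bases before the start, and the Cxcl12 window held none of the 3 motifs. This says only which letters are in the windows. Over all 32851 promoters given by RefSeq, 32.4% held GCGTG, 7.81% held TGANTCA and 20.7% held GGGANNNNCC. RefSeq promoters were given for 12 of the 19 expressed genes, with 14 promoters. Of those promoters 8 held GCGTG, 3 held TGANTCA and 4 held GGGANNNNCC. The 82 promoters given for 68 of the 95 members held them at 35.4%, 22% and 30.5%.

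Cxcr3, the receptor of activated T cells for Cxcl10, read 228 and 175 in wild type against 266 and 204 in knockout. The groups overlapped, and the difference was 0.21 ± 0.37 with adjusted p = 0.76. It was the only chemokine receptor beside Cxcr4 to pass the signal threshold. The 13 others were dim, among them Ccr2, the receptor of Ccl2, at 11.9 and 11.2 in wild type against 4.55 and 30.7 in knockout. Cxcr2, through which Cxcl1 and Cxcl2 call neutrophils, did not exceed 10.5 on any array, and Cxcr6, the receptor of Cxcl16, did not exceed 17.6. For these 4 ligands the ligand was thus above the threshold and the named receptor was not.

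The CC chemokines were 5 of 18 expressed. By sign 3 were lower and 2 higher, with Ccl9 among the higher ones at only 0.090 and with overlapping groups. Ccl2, the main monocyte attractant, read 1706 and 2426 in wild type against 1204 and 622 in knockout. The groups were separate, with a log2 difference of -1.22 ± 0.42 and adjusted p = 0.16. AhR knockout 1 differed by -0.75 and AhR knockout 2 by -1.68. Ccl7, a related monocyte attractant, read 130 and 326 in wild type against 136 and 118 in knockout. Here wild type 2 alone was high and the other 3 arrays lay together, with a difference of -0.65 ± 0.45 and adjusted p = 0.43. Shared binding between probe sets of related chemokines was not checked.

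Ccl4, a chemokine of macrophages and T cells, was the only expressed CC chemokine more than 2-fold higher. Its signal was 94.9 and 86.5 in wild type against 185 and 224 in knockout, with both knockout arrays above both wild-type arrays. The log2 difference was 1.04 ± 0.36 with adjusted p = 0.15, and AhR knockout 1 alone gave 0.91 and AhR knockout 2 alone 1.17. Leukocyte markers differed on the same arrays in both directions, 0 of them past the adjusted threshold. Lyz2, a lysozyme of macrophages, read 669 and 881 in wild type against 2628 and 2776 in knockout, and C1qb, a complement subunit, read 54.8 and 65.4 against 146 and 134. Cd68, a lysosomal marker of macrophages, went the other way, at 819 and 578 in wild type against 808 and 208 in knockout, with overlapping groups. Of 27 leukocyte markers measured 7 were tested, 5 of them higher and 2 lower (Cd68 and Laptm5), with a median of 0.56. Their summed signal over the 27 was 3110 and 3085 in wild type against 7749 and 4934 in knockout. Cd14, at 799 and 731 in wild type against 3122 and 943 in knockout, was its largest part on AhR knockout 1. None of the 27 was listed at 0, but Ptprc, the pan-leukocyte surface phosphatase, did not exceed 26.1 on any array, nor Cd3e, of T cells, 16.4. The part of leukocytes in the Ccl4 difference was not tested.

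Ccl6 and Ccl9 are rodent chemokines of macrophages that act through Ccr1. Ccl6 read 41.1 and 397 in wild type against 31.2 and 32.4 in knockout, so wild type 1 was close to the knockout arrays. Its difference of -1.68 ± 0.74, with adjusted p = 0.24, was -0.26 without wild type 2. A dimmer Ccl6 probe set showed the same array high, at 22.3 and 99.0 in wild type against 36.8 and 23.6. Ccl9 read 324 and 430 in wild type against 466 and 341 in knockout. These overlapped, at 0.090 ± 0.37 with adjusted p = 0.90. In the RefSeq gene order Ccl9, Ccl6, Ccl3 and Ccl4 follow each other with no other protein-coding gene between, as do Ccl2 and Ccl7. In the first run Ccl4 was higher, Ccl6 lower and Ccl9 overlapping, and Ccl3 did not exceed 20.4 on any array. Ccl2 and Ccl7 were both lower by their means, highest in wild type 2 and lowest in AhR knockout 2.

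Among the CXC chemokines 5 of 12 were expressed, 4 lower and 1 higher, and 0 had an unadjusted p under 0.05. Cxcl1, an attractant of neutrophils that was first known as a melanoma growth-stimulating factor, read 198 and 484 in wild type against 256 and 145 in knockout. Cxcl2, its neighbour with a like function, read 88.1 and 219 in wild type against 67.2 and 136 in knockout. In both genes wild type 2 was high and the groups overlapped. The differences were -0.65 ± 0.48 and -0.47 ± 0.48, with adjusted p = 0.46 and 0.59. Without wild type 2 they were -0.036 and 0.11, so the sign of Cxcl2 turned.

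The Cxcl1 and Cxcl2 promoters are shown as the neighbouring pair in which the same wild-type array stood highest. They lie on the plus strand at chr5:90890995-90891294 and chr5:90903649-90903948, with capitals as above.
Cxcl1: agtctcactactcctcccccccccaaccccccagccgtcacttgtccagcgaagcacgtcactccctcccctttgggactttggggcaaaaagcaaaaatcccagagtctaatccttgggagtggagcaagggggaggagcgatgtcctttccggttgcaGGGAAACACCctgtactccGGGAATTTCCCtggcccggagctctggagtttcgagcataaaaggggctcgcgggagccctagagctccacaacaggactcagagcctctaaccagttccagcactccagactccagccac
Cxcl2: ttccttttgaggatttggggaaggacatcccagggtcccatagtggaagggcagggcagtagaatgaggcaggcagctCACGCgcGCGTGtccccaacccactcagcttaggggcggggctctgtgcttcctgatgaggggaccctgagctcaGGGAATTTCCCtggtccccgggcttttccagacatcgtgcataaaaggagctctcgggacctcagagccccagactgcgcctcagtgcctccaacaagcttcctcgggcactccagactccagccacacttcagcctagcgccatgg
Both windows held GGGAATTTCC, a match to the NF-kappaB pattern, overlapped by a match on the other strand 1 base further on. It began 71 bases before the start in Cxcl1 and 97 bases before it in Cxcl2. Cxcl1 held a second match, GGGAAACACC, from 90 to 81 bases before the start. Cxcl2 also held 2 matches to the AhR core, and Cxcl1 held 0.

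Cxcl16, a membrane-bound chemokine and scavenger receptor, read 229 and 196 in wild type against 151.7 and 151.7 in knockout. The groups were separate but close, at -0.44 ± 0.35 with adjusted p = 0.49. Its dimmer probe set gave -0.88, with 111 and 175 in wild type against 100 and 45.6 in knockout. Cxcl10, an interferon-induced attractant of T cells, read 162 and 71.9 in wild type against 158 and 146 in knockout. Here wild type 2 was the low array, and the difference of 0.43 ± 0.42, with adjusted p = 0.57, was -0.080 without it.

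**Figure D2:**
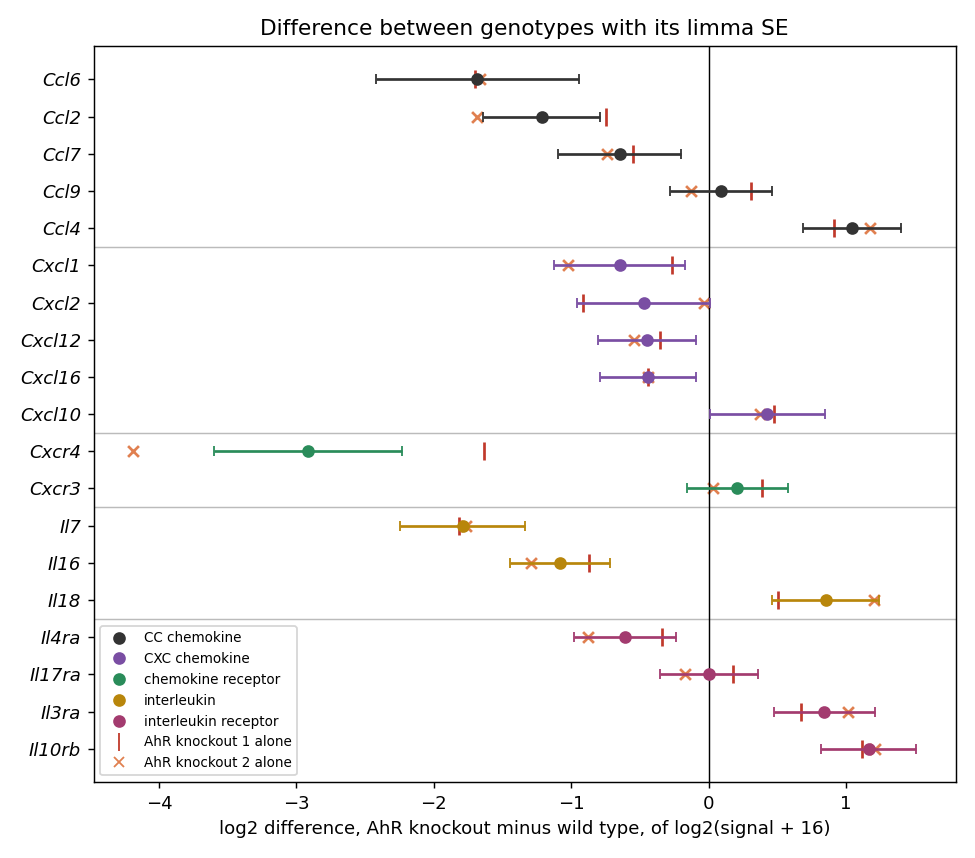
Log2 difference of each expressed gene, AhR knockout minus wild type, as a dot with its limma SE; the bar and the cross give AhR knockout 1 and AhR knockout 2 alone against the wild-type mean. Cxcr4 lies at -2.91 with its knockout arrays at -1.64 and -4.19, whereas the knockout arrays of Il7 and Il10rb nearly coincide.

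The interleukins were 3 of 26 expressed. By their brightest probe sets the groups were separate for all 3, as they were for 55.4% of all tested genes. Il7, a survival factor for lymphocytes made by stromal, epithelial and lymphatic vessel cells, read 136 and 347 in wild type against 50.7 and 53.3 in knockout. The log2 difference was -1.79 ± 0.45 with adjusted p = 0.083. By this brightest probe set the knockout arrays were alike, at -1.82 and -1.76, and the spread lay in wild type. The difference was -1.16 without wild type 2. A dimmer Il7 probe set gave -0.68, with overlapping groups, as AhR knockout 2 read above wild type 1. With the probe sets averaged the difference was -1.24, with adjusted p = 0.15 from limma. The size of the Il7 difference thus depended on the probe set. The knockout mean of the brightest one lay below the threshold of 76, as it did for Ccl6. Without Il7 and Ccl6, 9 of 17 members were lower, with a median of -0.44. Il7r, the receptor chain of Il7, was dim at 48.4 and 49.7 in wild type against 36.5 and 48.9 in knockout. Lyve1, a marker of lymphatic vessels, read 7177 and 11546 in wild type against 7727 and 7026 in knockout, with overlapping groups.

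Il16, a chemoattractant for cells bearing CD4 that is cut from a larger precursor, read 508 and 419 in wild type against 245 and 179 in knockout. The difference was -1.08 ± 0.37 with adjusted p = 0.15. A further probe set read 196 and 169 in wild type against 118 and 110 in knockout, a difference of -0.61, also with separate groups. Il16 was thus lower by both probe sets and in both knockout mice, with differences of -0.87 and -1.29 for its brighter one.

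Il18, an interleukin 1 family cytokine released after cleavage by caspase 1, read 194 and 151.8 in wild type against 250 and 416 in knockout. The difference was 0.85 ± 0.39 with adjusted p = 0.25, and AhR knockout 1 alone gave 0.50 and AhR knockout 2 alone 1.20. Its receptor chain Il18r1 did not exceed 7.75 on any array. The remaining 23 interleukins were dim. Il6, Il10 and Il1a did not exceed 23.0, 17.5 and 15.4 on any array, and Il1b read 39.1 and 62.8 in wild type against 59.8 and 52.0 in knockout.

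Interleukin receptor chains were 4 of 24 expressed. By sign 3 were higher and 1 lower, with Il17ra among the 3 at only 0.0041 and with overlapping groups. Il10rb, the chain shared by receptors of interleukin 10, interleukin 22 and the lambda interferons, read 1193 and 979 in wild type against 2360 and 2521 in knockout. Both knockout arrays were above both wild-type arrays and close to each other. The log2 difference was 1.16 ± 0.35 with adjusted p = 0.12, the smallest among the higher members, and it was 1.12 and 1.21 in the separate knockout mice. Il10ra, the chain that binds interleukin 10 itself, did not exceed 5.56 on any array. Most tested melanocyte markers were higher on the same arrays. Of 11 tested, 9 were higher, and the median over the 11 was 0.56. Kit and Mitf were lower with separate groups. Kit read 1235 and 900 in wild type against 558 and 273 in knockout, and Mitf 2771 and 2644 against 1668 and 2462. The summed signal of the 14 measured was 77148 and 58407 in wild type against 91143 and 117218 in knockout. The part of melanocyte content in the Il10rb difference was not tested.

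Il3ra, the interleukin 3 binding chain, read 90.0 and 71.7 in wild type against 138 and 178 in knockout. The groups were separate, with a difference of 0.84 ± 0.37 and adjusted p = 0.23. Il4ra, the chain common to interleukin 4 and interleukin 13 receptors, read 197 and 210 in wild type against 157 and 104 in knockout, at -0.61 ± 0.37 with adjusted p = 0.37. A dimmer Il4ra probe set went the other way by 0.42. Il17ra, the receptor chain for interleukin 17A, read 269 and 283 in wild type against 314 and 243 in knockout. Its difference was 0.0041 ± 0.36 with adjusted p = 0.995, and a dimmer probe set gave -0.88, so its level with respect to genotype was not settled here.

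**Figure D3:**
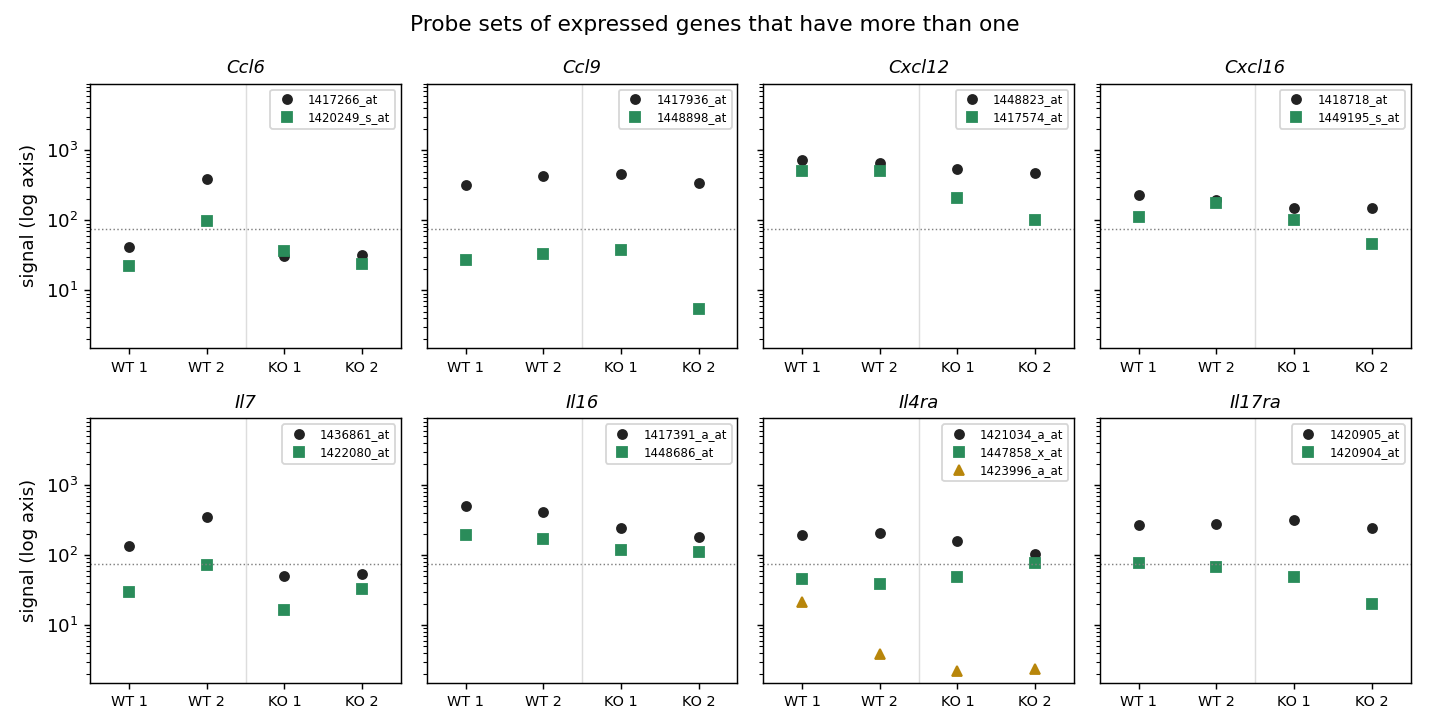
Signal (log axis) of every probe set of the 8 expressed genes that have more than 1, on the 4 arrays; colours and shapes separate probe sets and the dotted line is the signal of 76. The Cxcl12 and Il16 probe sets are all lower in knockout, whereas those of Ccl9, Il4ra and Il17ra differ in sign.

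The wild-type mice also differed from each other. Wild type 2 was at least 2-fold above wild type 1, on the log2(signal + 16) scale, in 5 of 19 members (Ccl6, Il7, Ccl7, Cxcl1 and Cxcl2), or 26.3%, against 3.35% of all tested genes. Ccl6 and Il7 passed the signal filter only through wild type, so that filter favoured their place in this count. Among the 17 members without both, Ccl7, Cxcl1 and Cxcl2 remained. Wild type 2 was at least 2-fold below wild type 1 in 1 member, Cxcl10, against 1.98%. The gap was largest in Ccl6, where wild type 2 read 9.66 times wild type 1. On the log2(signal + 16) scale the knockout mice were at least 2-fold apart in Cxcr4 alone, against 16.4% of all tested genes. In raw signal Cxcl2, at 67.2 and 136 in knockout, was also just over 2-fold apart. In 8 members the arrays of 1 genotype lay further apart than the genotype means, against 58.6% of all tested genes. Wild type 2 was the highest array for 8 of 19 members, or 42.1%, against 28.6% of all tested genes. Ccl6 and Il7 were among these 8. Over 12 measured fibroblast markers the summed signal was 2872 and 5297 in wild type against 2944 and 1889 in knockout, most of it from Thy1, at 1886 and 4063 against 2181 and 1363. Of 5 tested, 3 were lower and 2 higher. Col3a1, a collagen chain, fell by 2.29 with adjusted p = 0.041, and Pi16 read 63.5 and 106 in wild type against 276 and 124 in knockout. Their part in the pattern was not tested.

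**Figure D4:**
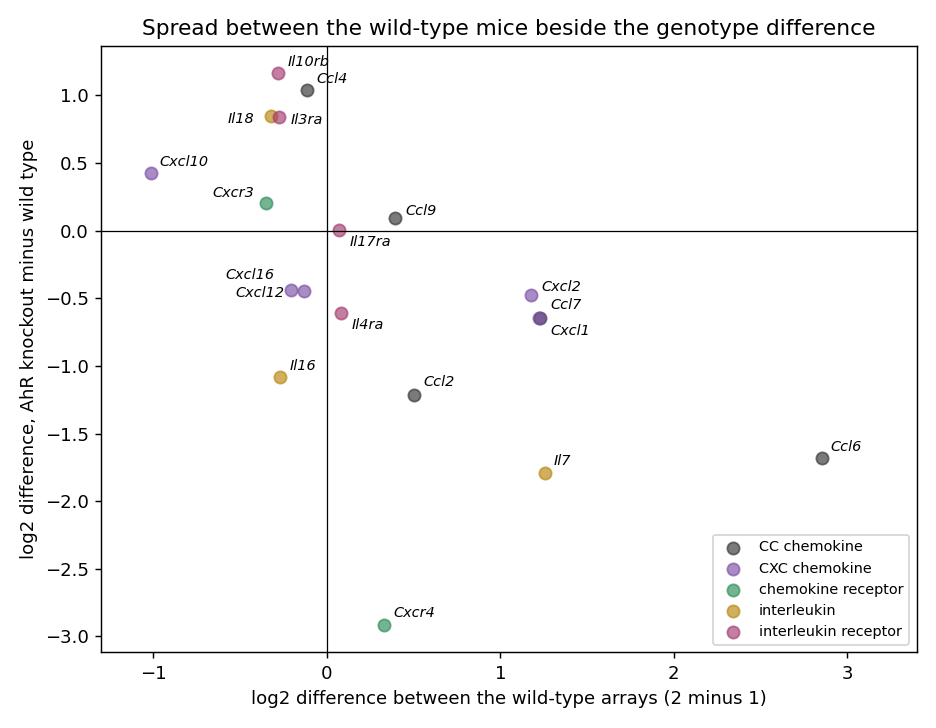
Log2 difference between the wild-type arrays (wild type 2 minus wild type 1) on the horizontal axis and the genotype difference on the vertical axis for the 19 expressed genes, coloured by role. Ccl6, Il7, Ccl7, Cxcl1 and Cxcl2 lie beyond 1 on the horizontal axis, and Cxcr4, Il10rb, Ccl4 and Il16 have a larger genotype difference than wild-type spread.

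The other 76 members had mean signals from 1.44 to 75.5, with a median of 15.1, and 38 of them stayed under 30 on every array. The highest value on any array was 117, for Il1r1 in wild type 2. The nearest to the threshold from below were Ccl8 at 75.5, Cxcl17 at 74.5 and Il20 at 60.6, and the nearest from above were Il3ra at 119 and Ccl6 at 125. With no signal filter 0 of the 76 passed limma, with a smallest adjusted p of 0.21 and 8 (10.5%) at an unadjusted p under 0.05. In that fit 10.3% of all genes at or below the threshold, and 15.1% of all genes, were at that level, and 0% of the former passed after adjustment. The groups did not overlap for 52.6% of them, against 41.9% of all genes at or below the threshold.

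Genes that work with these ligands and receptors gave 0 calls over all genes tested, in lists taken from textbook pathways. Shared receptor subunits, decoys and antagonists had 9 tested of 20 measured, 1 of the 20 (Il1rl2, dim) being itself a member. Of the 9, 4 were lower and 5 higher, and the median was 0.45. An unadjusted p under 0.05 was found for 4 of them, or 44.4%, against 20.6% of all tested genes. Il1rap, the co-receptor of interleukin 1 and interleukin 33, read 492 and 446 in wild type against 255 and 204 in knockout, at -0.99 ± 0.36 with adjusted p = 0.17. Lifr, the receptor of leukemia inhibitory factor, differed by -1.26, Tslp, an epithelial cytokine, by -1.15 and Il17re by 1.07. Further genes of the chemokine system had 6 tested of 18, 1 lower and 5 higher, their median being 0.22 and their count at that level 0. Beside Ackr3, Cmtm7 differed by 0.64, Pf4, a platelet chemokine, by 0.67 and Cklf by 0.23.

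Signalling genes were spread to both sides. JAK, STAT and SOCS genes had 16 tested of 22, 6 lower and 10 higher. Their median was 0.11, and 4 of the lower ones had an unadjusted p under 0.05. These were 25% of the 16, near the 20.6% of all tested genes (12.9% lower). Socs6, of the cytokine signalling suppressors, read 492 and 540 in wild type against 225 and 97.7 in knockout, at -1.68 ± 0.43 with adjusted p = 0.084. Jak1, the kinase used by most of these receptors, differed by -1.09, Pias1, a SUMO ligase, by -0.87 and Socs5 by -0.84. Stat3 and Stat6, the factors of interleukin 10 and interleukin 4 signalling, differed by 0.072 and 0.27, with overlapping groups for Stat3. NF-kappaB and interleukin 1 receptor signalling genes had 20 tested of 22, 9 lower and 11 higher. Their median was 0.067, and 1 of them (5%, against 20.6% of all tested genes) had an unadjusted p under 0.05. That gene was Tab3, an adaptor of the kinase TAK1, at -1.32 ± 0.43 with adjusted p = 0.14. Tab1 differed by 0.78, Nfkbiz by -0.82 and Nfkbia, the inhibitor that NF-kappaB itself induces, by 0.44.

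Pycard, the adaptor through which inflammasomes activate caspase 1, stood nearest to the threshold of all these lists. It read 484 and 284 in wild type against 1444 and 1498 in knockout, with both knockout arrays above both wild-type arrays. The log2 difference was 1.94 ± 0.39 with adjusted p = 0.054. Caspase 1, the enzyme that matures Il18, read 95.9 and 121 in wild type against 96.7 and 191 in knockout (Casp1, 0.30 ± 0.41). Casp4 overlapped as well, at 0.070. These 3 were the tested genes of 5 measured on that list, all 3 higher, and only Pycard separated the groups.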

How the data were processed

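The deposited values are linear signal intensity per probe set on 1-colour Affymetrix arrays, made with MAS5, per the submitters' processing notes; detection calls and filters have no source used here. Of 22690 probe sets 20380 had a single gene symbol, and the brightest probe set by mean stood for its gene. Matching gene identifiers to RefSeq (GRCm38.p6) changed 0 member names. The top 60% of genes by mean signal (7436, lowest mean 81.1) were tested on log2(signal + 16) with limma 3.58.1 (eBayes with trend, R 4.3.3). Adjustment was by Benjamini-Hochberg across the 7436, at a threshold of 0.05. Each array is a separate animal; an exact permutation of 2 against 2 cannot pass, so p-values rest on limma. The method was also run on simulated arrays. Their noise was independent and normal with the variances that limma fitted, so effects shared across an array were not covered. Members and lists were chosen with earlier results of these data known. Named are expressed members, the 3 brightest dim ones and up to 4 genes per pathway list by smallest p. Added after their values were seen were Stat3, Stat6, Lyve1, Thy1, Cdh5, Ptprc, Cd3e, Lyz2, C1qb, Cd68, Laptm5, Pi16 and Dct. So were Kit, Mitf, Eng, Flt4, Pdpn, Vwf, Erg, Prox1 and Cd14. The other dim receptors, interleukins and Ccl3 named beside a member were also added in this way. Arrays carry no count depth, and their number limits the precision. Figures were drawn with matplotlib 3.10.9. Alternatives are in the closing section.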

Additional observations from a re-analysis of the deposited data

How the results depend on the processing

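Members past the limma threshold numbered 0 under quantile normalization, equal medians, pseudocounts of 1 and 64, both other filters, averaged or separate probe sets, eBayes without trend and robust eBayes. At an adjusted p under 0.10 they were 2, Cxcr4 and Il7, of 364 genes. Calls over all genes, 71, became 8 with quantile normalization, 43 with a pseudocount of 1, 1 without the filter, 20 in the top 40% and 30 with every probe set. Leaving out 1 array gave 0 to 8 members, 20 to 1360 genes and a member median of -0.44 to -0.036; that median was -0.76 over the 6 members of the top 40%. With the title number as a replicate block 7 members (Cxcr4, Il7, Ccl6, Ccl2, Il10rb, Il16 and Ccl4) and 1406 genes passed. The titles do not say that a number marks a shared litter or day, and same-numbered arrays deviated together at r = 0.35 across genes over only 2 pairs, so the numbers were not taken as pairs. Ranking genes by mean log2 value, chosen after seeing the data, left Ccl6 untested and gave 0 members of 51 calls. Reading the interleukin suffix without a following digit left 87 members and the same number expressed, 19. An array left out leaves its genotype with a lone array, assumed to vary like the others.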

Other observations

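Receptor chains below the signal threshold included several with separate groups. These were chosen after their values were seen, as the dim members with an unadjusted p under 0.05 when no filter was applied (3 lower and 5 higher of 76, or 10.5%, against 10.3% of all genes at or below the threshold and 15.1% of all genes, with 0 past the adjusted threshold). Il1r1, the signalling receptor of interleukin 1, read 39.6 and 117 in wild type against 9.62 and 5.83 in knockout. Il1r2, the decoy that binds interleukin 1 without signalling, read 6.25 and 16.6 in wild type against 23.3 and 44.8 in knockout. Il13ra1, which signals with Il4ra, read 37.9 and 86.7 against 23.1 and 13.7. Its other probe sets disagreed: the nearest in signal differed by 0.024, another by 0.25, and the remaining pair by -1.19 and -0.64. Il13ra2, a decoy for interleukin 13, read 19.8 and 15.1 against 48.5 and 34.0. Il12rb1, shared by the interleukin 12 and interleukin 23 receptors, read 81.3 and 79.7 in wild type against 41.9 and 26.0 in knockout.

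The remaining 3 were higher in knockout. Ccl17, a T cell attractant, read 8.72 and 9.37 in wild type against 21.7 and 56.4 in knockout. Il2ra read 13.6 and 12.2 against 28.7 and 32.1, and Il5ra read 3.57 and 1.65 against 9.40 and 15.8. AhR knockout 2 was the highest array for 47.4% of the 76 dim members and for 42.5% of all genes at or below the threshold. Signals of this size have no detection call here, so whether they stand above background was not tested.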
